A study of Mus musculus with 8 samples.

Results

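p53, encoded in the mouse by Trp53, is a transcription factor that is held at a low level by its own target genes and is stabilised when cells are stressed or their DNA is damaged. The 9 genes described here are Trp53 and 8 genes whose products act back on p53 or relay its signal, namely Mdm2, Mdm4, Ccng1, Ppm1d, Trp53inp1, Zmat3, Plk2 and Plk3. They were taken by name, through the RefSeq accession of each array probe, and all 9 were among the 24921 genes or transcripts tested.

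Whole liver RNA of 8 female B6C3F1 mice, a first-generation hybrid strain, was measured on 8 one-colour arrays. The vehicle group, replicates 2, 3, 4 and 6, received corn oil alone by gavage, and the furan group, replicates 41, 42, 43 and 44, received furan in corn oil at 8 mg per kg body weight. Furan forms when food is heated and is a liver toxicant and carcinogen in rodents. All mice were bought at 5 to 6 weeks of age, acclimatised for at least 7 days and dosed for 21 days, and their livers were frozen 4 hours after the last dose.

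In unstressed cells the ubiquitin ligase Mdm2 binds p53 and marks it for breakdown, and its relative Mdm4 binds p53 and blocks its activity. Mdm2 is itself switched on by p53, which closes a negative feedback loop. Much of the control of p53 acts on the protein, through phosphorylation and ubiquitin, and an array of RNA does not measure it.

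Each probe gave 1 value per array, the log2 signal relative to the 75th percentile of its array, so a level of 0 is the signal that 25% of the spots exceed. Levels are not comparable between genes, and each change is furan minus vehicle on the log2 scale. The threshold was an adjusted p of 0.05 in limma, adjusted by Benjamini-Hochberg over all 24921. On the arrays between 55.1% and 86.2% of spots were well above background. Vehicle replicate 2 had the highest share and a median processed intensity of 130, against 32.5 to 48.2 on the other 7 arrays.

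The promoter letters of members that move with furan and of those that do not can be set side by side. The RefSeq promoter table, build GRCm38.p6, held 7 of the 9 genes, all but Trp53inp1 and Zmat3. The 250 bases before each start were searched for the consensus p53 half-site, a 10-letter motif that reads the same on both strands and of which a full p53 site has a pair, and for TGACGTCA, the palindromic cyclic AMP response element. These motifs did not overlap in any of the windows shown. The sequences, 5′ to 3′ on the strand of the gene, are those with either motif, which is in capitals.
Mdm2, chr10:117710759-117711008, minus strand: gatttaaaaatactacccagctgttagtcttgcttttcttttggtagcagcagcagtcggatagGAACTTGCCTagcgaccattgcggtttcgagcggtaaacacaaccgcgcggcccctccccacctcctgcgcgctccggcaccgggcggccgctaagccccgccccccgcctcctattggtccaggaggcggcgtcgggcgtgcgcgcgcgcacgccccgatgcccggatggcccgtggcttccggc
Ccng1, chr11:40755287-40755536, minus strand: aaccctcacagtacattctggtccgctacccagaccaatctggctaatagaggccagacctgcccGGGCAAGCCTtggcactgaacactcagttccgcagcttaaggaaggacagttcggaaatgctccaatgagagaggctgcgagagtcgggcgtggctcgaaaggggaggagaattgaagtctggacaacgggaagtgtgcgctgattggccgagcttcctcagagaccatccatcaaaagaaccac
Trp53, chr11:69580109-69580358, plus strand: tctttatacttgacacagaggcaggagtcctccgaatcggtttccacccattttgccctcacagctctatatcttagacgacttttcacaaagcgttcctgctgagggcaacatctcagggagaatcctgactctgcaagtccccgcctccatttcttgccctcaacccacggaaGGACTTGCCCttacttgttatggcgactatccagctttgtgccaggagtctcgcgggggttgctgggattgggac
Ppm1d, chr11:85311004-85311253, plus strand: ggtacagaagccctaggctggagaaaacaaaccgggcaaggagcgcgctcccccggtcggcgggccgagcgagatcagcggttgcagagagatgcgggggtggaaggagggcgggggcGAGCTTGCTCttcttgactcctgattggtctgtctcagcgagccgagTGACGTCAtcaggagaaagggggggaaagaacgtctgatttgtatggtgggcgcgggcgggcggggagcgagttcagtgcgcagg
Plk2, chr13:110394794-110395043, plus strand: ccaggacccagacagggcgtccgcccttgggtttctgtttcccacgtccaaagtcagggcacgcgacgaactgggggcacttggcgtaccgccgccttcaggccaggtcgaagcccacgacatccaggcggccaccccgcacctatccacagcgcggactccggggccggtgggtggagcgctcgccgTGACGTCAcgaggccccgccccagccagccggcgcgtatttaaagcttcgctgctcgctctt

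A half-site was found in 4 of the 8 windows of the 7 genes, each of a different gene, against 7.13% of all 32851 windows of this length in the table. It was GAACTTGCCT in Mdm2, from 186 to 177 bases before the start, and GGGCAAGCCT in Ccng1, from 185 to 176 bases before it. In Trp53 it was GGACTTGCCC, 75 to 66 bases before the start, and in Ppm1d GAGCTTGCTC, 132 to 123 bases before it. None of the 8 windows of the 7 genes, 2 of them of Mdm4, held a full site of a pair of half-sites up to 13 bases apart, which 0.0639% of all windows did. TGACGTCA was found in 2 of the 8 windows, those of Ppm1d and Plk2, against 1.55% of all windows. Of the genes with a half-site, Mdm2 and Ccng1 passed the test described below and Trp53 and Ppm1d did not. Plk2 passed and had none in its window. Bases beyond these windows, within the genes or further upstream, were not searched. The absence of a full site from the windows therefore does not show that these genes lack one. A match of letters is a description and not a measured binding site.

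Furan and vehicle livers were set against each other to ask which of the 9 genes differed after 3 weeks of dosing. Zmat3, Ccng1, Trp53inp1, Mdm2 and Plk2 were higher with furan, by 2.01-fold to 3.11-fold. Trp53 itself, Mdm4, Ppm1d and Plk3 did not pass the test. Thus 5 of 9 rose and 0 fell, where 2.87% of all features tested rose and 1.31% fell, 4.18% in either direction. The 9 genes were chosen with earlier results of these data known, so these shares are a description and no test of the list. The median log2 change of the 9 genes was 1.01, against -0.09 for all features. In 6 of the 9, the 5 that rose and Ppm1d, every furan array was above every vehicle array, as in 10.8% of all features, and in 0 of the 9 they were all below, as in 7.33%. A log2 change of 1 or more was found in 5 of the 9 and in 0.879% of all features. Of the 4 genes that did not pass, only Ppm1d had an unadjusted p under 0.05 (limma, 0.0291), as 23.8% of all features did.

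**Figure D1:**
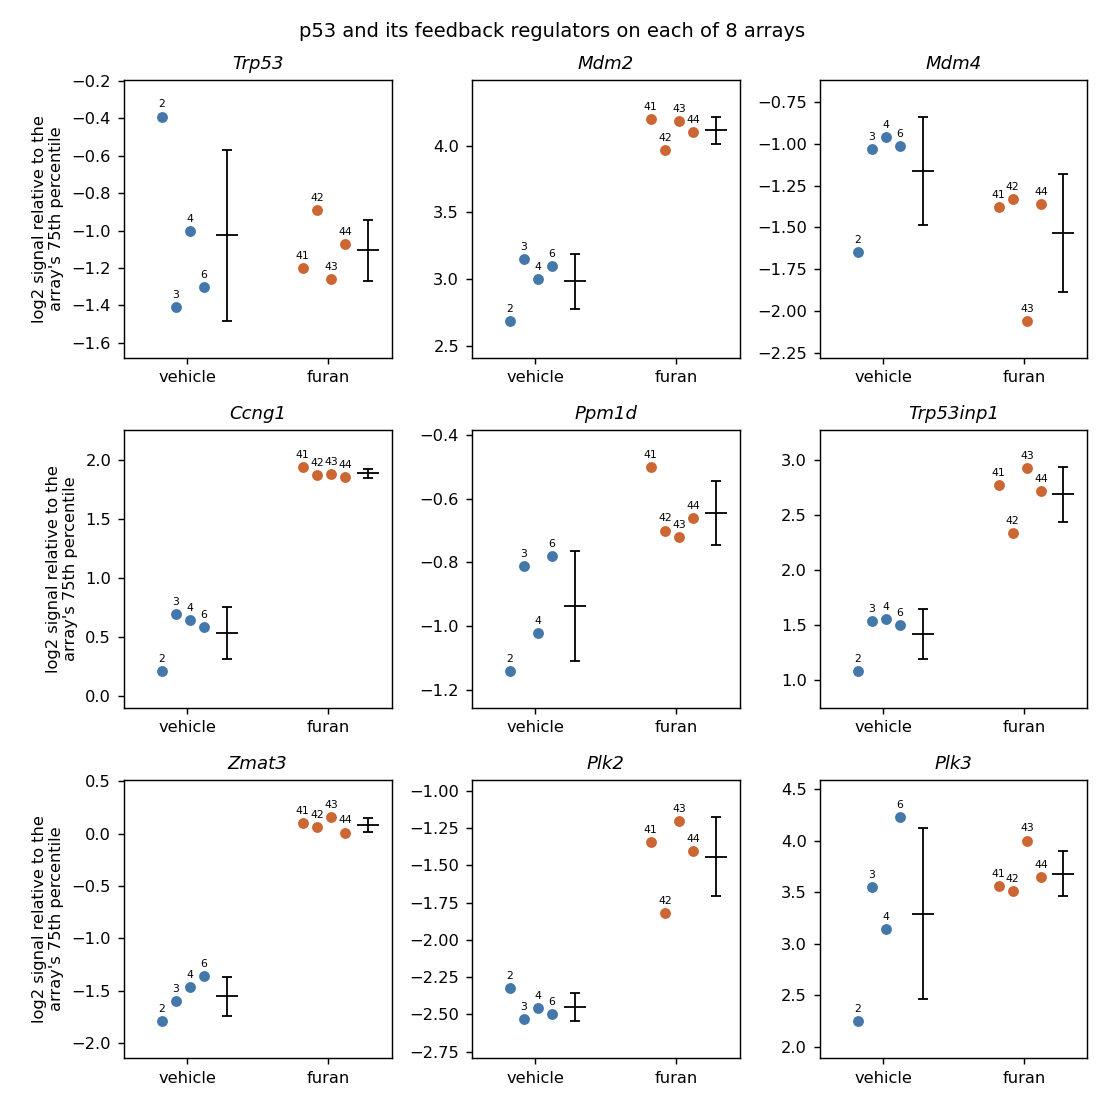
Log2 signal relative to the 75th percentile of the array (vertical axis, its own range in each panel) for the 9 genes in the vehicle (blue) and furan (orange) groups. Each point is 1 array with its replicate number, and the line and bar beside the points are the mean and SD of 4 arrays. The groups do not overlap for Mdm2, Ccng1, Ppm1d, Trp53inp1, Zmat3 and Plk2, and vehicle replicate 2 is the lowest vehicle array for 7 of the 9 genes.

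Trp53 encodes p53 itself. Its level was -0.39, -1.41, -1.0 and -1.30 on the arrays of vehicle replicates 2, 3, 4 and 6, and -1.20, -0.89, -1.26 and -1.07 on those of furan replicates 41 to 44. The 4 furan arrays lay within the range of the vehicle arrays, which was set at its upper end by vehicle replicate 2. The mean was -1.03 ± 0.46 (SD, n = 4) with vehicle and -1.10 ± 0.17 with furan, a log2 change of -0.08 ± 0.22 (SE, limma adjusted p = 0.833). The 95% interval ran from -0.59 to 0.44, or 0.663-fold to 1.35-fold. Without vehicle replicate 2 the sign turned, to 0.13 (adjusted p = 0.590). The direction of so small a difference also turned with the scaling, as given in the closing part.

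The ubiquitin ligase gene Mdm2 was measured at 2.69, 3.15, 3.00 and 3.10 with vehicle and at 4.20, 3.97, 4.18 and 4.10 with furan. Even the lowest furan array, replicate 42, was above the highest vehicle array. The mean went from 2.99 ± 0.21 (SD, n = 4) to 4.11 ± 0.10, a log2 change of 1.12 ± 0.12 (SE) or 2.18-fold, with a 95% interval of 1.79-fold to 2.65-fold (limma adjusted p = 0.00653). Of all features, 99.3% had a lower log2 change.

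Mdm4, which restrains p53 without degrading it, was at -1.65, -1.03, -0.96 and -1.01 with vehicle and at -1.38, -1.33, -2.06 and -1.36 with furan. Apart from vehicle replicate 2, the vehicle arrays were above all 4 furan arrays, and furan replicate 43 was the lowest of all. The log2 change was -0.37 ± 0.22 (SE, limma adjusted p = 0.323), with a 95% interval from -0.88 to 0.14. Without vehicle replicate 2 it was -0.53, and without furan replicate 43 it was -0.20. A second Mdm4 probe was dim, well above background on 3 vehicle and 3 furan arrays. It read -2.43 for vehicle replicate 2 and between -4.40 and -3.68 on the other 7, a log2 change of -0.64 ± 0.37 (limma adjusted p over all probes = 0.324). The mean of both probes gave -0.50 (limma adjusted p = 0.0932).

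Both relatives bind p53, and their changes were compared within each array, where scaling by a single shift cancels. Mdm2 minus Mdm4 was 4.15 ± 0.16 (SD, n = 4) with vehicle and 5.64 ± 0.41 with furan, an unequal change of 1.49 ± 0.22 (SE). The groups did not overlap, with 3.96 to 4.34 for vehicle and 5.29 to 6.24 for furan. The 2-sided exact permutation test over the 70 assignments of arrays gave p = 0.0286, the smallest it can give, and 0.0357 after adjustment over the 5 pairs compared. Under quantile normalization, which is no single shift, the unequal change was 1.03 (exact permutation adjusted p = 0.114). The same difference between Mdm2 and Trp53 was 4.01 ± 0.66 with vehicle and 5.21 ± 0.27 with furan, an unequal change of 1.20 ± 0.36 (exact permutation adjusted p = 0.0357). On the array of vehicle replicate 2 it was 3.08, and without that array the unequal change was 0.89 (exact permutation adjusted p = 0.0286). Without furan replicate 41, 43 or 44 it was 1.14, 1.13 and 1.22 and did not pass (exact permutation adjusted p = 0.0714 in each). Where the exact p is the smallest possible, its adjusted value depends on how many of the 5 pairs also reach it. The adjusted p therefore does not rank the sizes of these changes. Each of the 5 pairs sets a gene that rose against one that did not pass in limma, so these tests are no separate support for the rise.

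Ccng1 encodes cyclin G1, a p53 target that brings a phosphatase to Mdm2. It was at 0.21, 0.69, 0.64 and 0.58 with vehicle and at 1.94, 1.87, 1.88 and 1.85 with furan. The furan arrays differed by less than 0.1 among themselves and the vehicle arrays by more, with vehicle replicate 2 lowest. The log2 change was 1.35 ± 0.12 (SE), 2.55-fold with a 95% interval of 2.11-fold to 3.08-fold (limma adjusted p = 0.00433). The related cyclin gene Ccng2 had a log2 change of -0.20 ± 0.19 (adjusted p = 0.510). Within arrays the unequal change of Ccng1 against Ccng2 was 1.55 ± 0.24 (exact permutation adjusted p = 0.0357), and 1.05 under quantile normalization (exact permutation adjusted p = 0.0714).

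Ppm1d encodes the phosphatase Wip1, which removes phosphate groups from p53 and from the kinases that activate it. Its level was -1.14, -0.81, -1.02 and -0.78 with vehicle and -0.50, -0.70, -0.72 and -0.66 with furan. The groups did not overlap, by a margin smaller than the spread within either group. The log2 change was 0.29 ± 0.11 (SE), with a 95% interval from 0.04 to 0.55, and did not pass after adjustment (limma adjusted p = 0.164). The upper bound of its interval was 1.46-fold, below the lower bounds of the 5 genes that rose, of which the lowest was 1.60-fold for Plk2. The difference between Ppm1d and these genes was not itself tested.

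Trp53inp1 encodes a nuclear protein that promotes phosphorylation of p53 and is induced by it. The brighter of its probes read 1.08, 1.54, 1.55 and 1.50 with vehicle and 2.78, 2.34, 2.93 and 2.72 with furan. Vehicle replicate 2 was lowest in its group and furan replicate 42 in the other. The log2 change was 1.28 ± 0.16 (SE), 2.42-fold with a 95% interval of 1.87-fold to 3.14-fold (limma adjusted p = 0.0109). The dimmer probe of the gene read -0.71, -1.21, -0.90 and -0.98 with vehicle and -0.50, -0.66, -0.30 and -0.31 with furan. Its groups did not overlap either, and its log2 change of 0.51 ± 0.14 was smaller and did not pass (limma adjusted p over all probes = 0.0872). The mean of both probes gave 0.89. Trp53inp2, the relative of Trp53inp1 known for a role in autophagy, had a log2 change of -0.05 ± 0.13 (adjusted p = 0.801). The unequal change of both genes within arrays was 1.33 ± 0.20 (exact permutation adjusted p = 0.0357).

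Zmat3 encodes an RNA-binding zinc finger protein that is induced by p53. It had the largest change of the 9 genes and the seventh smallest p of all features tested. Its level was -1.79, -1.60, -1.46 and -1.36 with vehicle and 0.10, 0.06, 0.16 and 0.01 with furan. The gap between the groups was several times the range within either. The log2 change was 1.64 ± 0.11 (SE), 3.11-fold with a 95% interval of 2.60-fold to 3.71-fold (limma adjusted p = 0.00160).

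**Figure D2:**
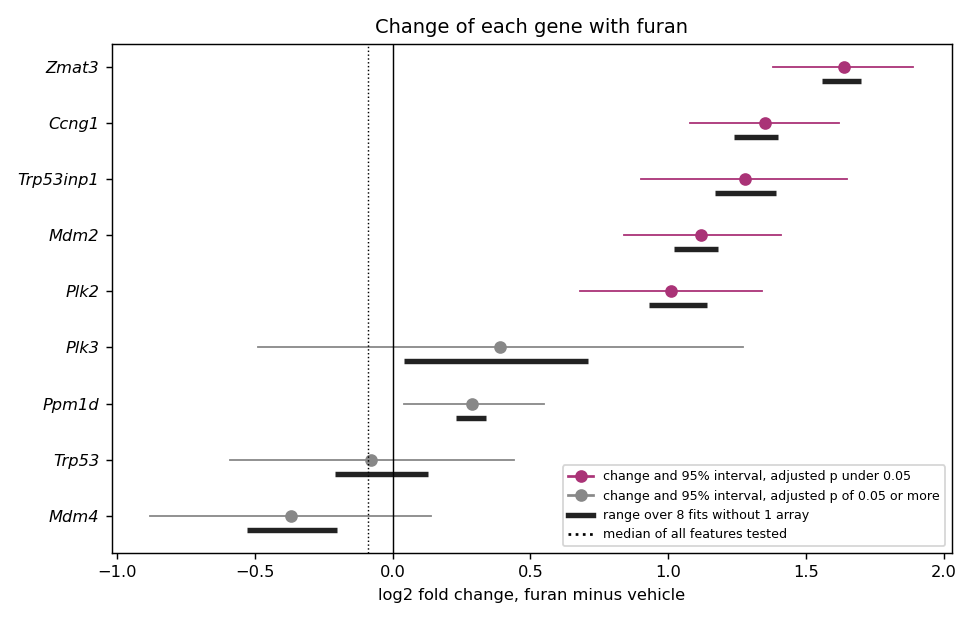
Log2 fold change, furan minus vehicle (horizontal axis), of each of the 9 genes with its 95% interval from limma, and below it, as a thick bar, the range over 8 fits that each left out 1 array. Changes ran from -0.37 for Mdm4 to 1.64 for Zmat3, and the intervals of the 5 genes that passed, from 0.68 upward, lie above those of Trp53 and Mdm4.

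Plk2 and Plk3 are polo-like kinases, relatives of the mitotic kinase gene Plk1 that respond to stress. Plk2 is a p53 target, and Plk3 can phosphorylate p53. Plk2 was at -2.32, -2.53, -2.46 and -2.50 with vehicle and at -1.34, -1.82, -1.20 and -1.40 with furan. Here vehicle replicate 2 was the highest of its group, and furan replicate 42 was nearest to the vehicle arrays. The log2 change was 1.01 ± 0.14 (SE), 2.01-fold with a 95% interval of 1.60-fold to 2.53-fold (limma adjusted p = 0.0150). This was the least stable of the 5 calls. It ended without furan replicates 41 and 44 (limma adjusted p = 0.0525 and 0.0513), without the filter on dim probes (0.0515), without a shift (0.0570), with a shift to the median of the array (0.135) and under quantile normalization (0.0928), where the log2 change was 1.49. The Plk2 probe was dim, with a processed intensity of 58.6 to 181.

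Plk3 was at 2.25, 3.55, 3.14 and 4.23 with vehicle and at 3.56, 3.51, 4.00 and 3.65 with furan. The vehicle arrays spread around all 4 furan arrays, from vehicle replicate 2 at the bottom to vehicle replicate 6 at the top. The SD was 0.83 with vehicle and 0.22 with furan, and the log2 change was 0.39 ± 0.38 (SE, limma adjusted p = 0.517), with a 95% interval from -0.49 to 1.27. Leaving out vehicle replicate 2 moved it to 0.04, and leaving out vehicle replicate 6 to 0.71. Whether Plk2 changed more than Plk3 depended on the setting and on 1 array. Their unequal change within arrays was 0.62 ± 0.47 (exact permutation p = 0.257, adjusted p = 0.257). It was 1.20 under quantile normalization (exact permutation adjusted p = 0.0476), 1.01 without the array of vehicle replicate 2 (exact permutation adjusted p = 0.0286) and 0.29 without that of vehicle replicate 6 (0.514).

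**Figure D3:**
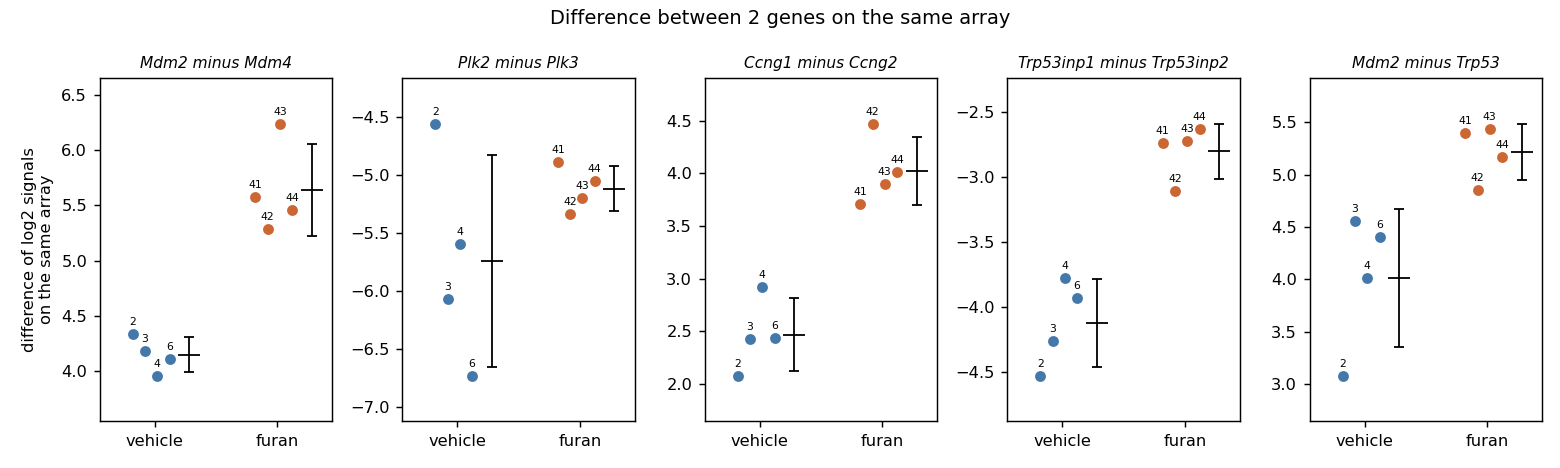
Difference of the log2 signals of 2 genes on the same array (vertical axis, its own range in each panel) for the 5 pairs compared, in the vehicle (blue) and furan (orange) groups, each point 1 array with its replicate number, with the mean and SD of 4 arrays beside them. The groups do not overlap for 4 pairs, and for Plk2 and Plk3 the furan arrays lie within the vehicle range.

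The arrays were also compared in the order of their place on the slide, where each of the 4 columns held 1 vehicle and 1 furan array and each of the 2 rows held 2 of each. Zmat3 was higher on the furan array by 1.41, 1.77, 1.89 and 1.47 in columns 1 to 4, and Mdm2 by 0.87, 1.03, 1.51 and 1.09. For Plk2 these differences were 0.67, 1.32, 0.98 and 1.06. Column 3, where Zmat3 and Mdm2 differed most, holds vehicle replicate 2. In 6 of the 9 genes, the 5 that rose and Ppm1d, the furan array was higher in each of the 4 columns, as in 16.9% of all features. Ppm1d was higher by 0.09, 0.09, 0.64 and 0.36, again most in column 3. Within rows 1 and 2 the log2 changes were 1.66 and 1.61 for Zmat3, 1.24 and 1.00 for Mdm2, 1.47 and 1.24 for Ccng1, 1.53 and 1.02 for Trp53inp1 and 1.11 and 0.91 for Plk2. With the column as a block limma called 0 of all features, and the adjusted p of the 5 genes was 0.0958 for Zmat3, 0.0959 for Ccng1, 0.110 for Mdm2, 0.118 for Trp53inp1 and 0.119 for Plk2. Their unadjusted p in that fit ran from 6.73e-05 for Zmat3 to 0.000897 for Plk2, and 4723 features had one under 0.05. A shift to the median of each array in place of the 75th percentile also ended the calls of Ccng1, Trp53inp1 and Mdm2 (limma adjusted p = 0.0759, 0.0986 and 0.147), with log2 changes of 1.84, 1.76 and 1.61, and kept that of Zmat3 (0.0257). That shift moved the split of all calls from 714 higher and 327 lower to 85 and 1, and no shift moved it to 230 and 31. With the median shift and without vehicle replicate 2, an alternative chosen after seeing the data, all 5 genes passed, with log2 changes of 1.68 for Zmat3, 1.37 for Ccng1, 1.29 for Trp53inp1, 1.18 for Plk2 and 1.15 for Mdm2 (limma adjusted p of at most 0.0139).

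The furan arrays were also set against each other. Averaged over the 5 genes that rose, the level above the vehicle mean was 1.35, 1.1, 1.40 and 1.27 on the arrays of furan replicates 41, 42, 43 and 44. The vehicle arrays lay between -0.21 for replicate 2 and 0.08 for replicate 6. Furan replicate 42 was lowest of its group for Mdm2, Trp53inp1, Plk2 and Plk3. Furan replicate 43 was the highest for Trp53inp1, Zmat3, Plk2 and Plk3 and the lowest for Trp53, Mdm4 and Ppm1d. The 5 genes were chosen for this average by the same comparison, which favours genes with little spread within a group. The average therefore describes the arrays. It is no separate test and no measure of how alike the animals were.

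**Figure D4:**
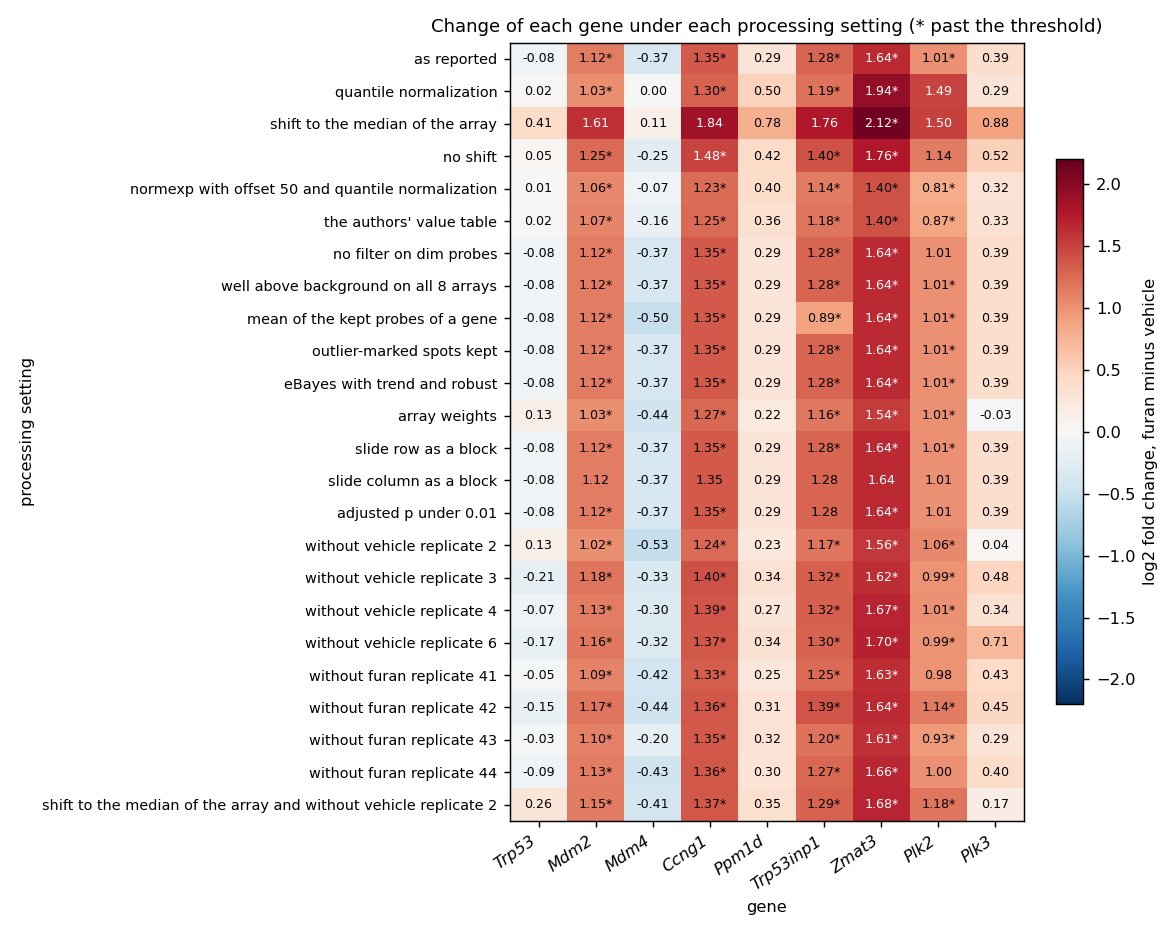
Log2 fold change, furan minus vehicle, of each of the 9 genes (columns) under each processing setting (rows), as numbers and colours from blue (lower with furan) to red (higher), with a star where the gene passed the threshold of that setting. Zmat3 runs from 1.40 to 2.12 and Mdm2 from 1.02 to 1.61, and Trp53 changes sign between settings.

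Other genes of the pathway place these values in context. Of 34 genes whose products modify or bind p53, such as the kinase genes Atm, Atr and Chek2 and the deubiquitinase gene Usp7, 32 were tested. In limma 0 of them passed in either direction, and their median log2 change was 0.08. The ends of their range were Cdkn2a, which encodes the Mdm2 inhibitor ARF along with a cyclin-dependent kinase inhibitor, at -0.65 ± 0.65 and the p53 ubiquitin ligase gene Rchy1 at 0.54 ± 0.12 (adjusted p = 0.525 and 0.0539), both named after their values were seen. In 8 of the 32 the unadjusted p was under 0.05, a share near the 23.8% of all features. In 8 the furan arrays were all above the vehicle arrays, as in 10.8% of all features, and in 1 all below, as in 7.33%. Other settings called up to 5 of them, 5 with trend and robust and 2 with array weights, among them Usp7 at 0.49 and 0.41 (limma adjusted p = 0.0220 and 0.0365). Over all features these settings called 2001 and 2043, against 1041. Usp7 also passed under quantile normalization (0.40, limma adjusted p = 0.0483), where 899 features were called. It passed with normexp, in the authors' value table and with the filter on all 8 arrays too (limma adjusted p = 0.0205, 0.0178 and 0.0396). These settings called 1297, 1671 and 1733 features. Rchy1 passed with the filter on all 8 arrays, with trend and robust and with array weights (limma adjusted p = 0.0344, 0.0194 and 0.0263). It also passed with the slide row as a block (limma adjusted p = 0.0493), where 810 features were called. Usp7 and Rchy1 were singled out after their values were seen.

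Of 40 effector targets of p53, 36 were tested. The list holds genes of arrest, death or repair and some with other roles, and was chosen with earlier results of these data known. Of the 36, 10 rose and 1 fell, where 2.87% of all features rose and 1.31% fell. The other 25 did not pass, and the median log2 change of the 36 was 0.32. In 12 every furan array was above every vehicle array, as in 10.8% of all features, and in 1 all were below, as in 7.33%. An unadjusted limma p under 0.05 was found in 18, and in 23.8% of all features. The cell cycle inhibitor gene Cdkn1a rose by 4.66 ± 0.23, the Akt repressor gene Phlda3 by 3.63 ± 0.20, the death receptor gene Tnfrsf10b by 2.45 ± 0.22 and the nuclease gene Aen by 1.55 ± 0.08 (limma adjusted p of at most 0.00435). The growth factor gene Gdf15 rose by 2.60 ± 0.26, and the other 5 that rose, Btg2, Bax, Ephx1, Sesn2 and Polk, by 0.93 to 1.48 (limma adjusted p of at most 0.0135). Thus 4 of the 10 rose by more than Zmat3, the highest of the feedback genes at 1.64, and the other 6 lay between 0.93 and 1.55, against 1.01 to 1.64 for the 5 feedback genes. The names beyond the first 4 were added after their values were seen. A second Cdkn1a probe, well above background on 5 of 8 arrays, was at -0.59 and did not pass (limma adjusted p over all probes = 0.622). A second Polk probe, well above background on all 8 arrays, was at 0.25 and did not pass either (limma adjusted p over all probes = 0.382). The second probes of Aen and Ephx1 were at 1.51 and 0.97 and passed (limma adjusted p over all probes = 0.000839 and 0.0424). Ddb2, whose product recognises ultraviolet damage in DNA, fell by 0.47 ± 0.10 (limma adjusted p = 0.0420). It was named after its value was seen, and the call ended in each of the 8 fits that left out 1 array.

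Of 15 relatives of the 9 genes, 13 were tested and 0 passed in limma. An unadjusted p under 0.05 was found in 2 of the 13, against 23.8% of all features. The median log2 change of the 13 was 0.01. The p53 family genes Trp63 and Trp73 were at 0.02 ± 0.27 and -0.08 ± 0.12, the phosphatase genes Ppm1a and Ppm1b at -0.01 ± 0.10 and 0.01 ± 0.10, and the zinc finger gene Zmat2 at 0.10 ± 0.10. The highest of the 13 was Plk1, at 1.37 ± 0.33, and the lowest Plk5, at -0.33 ± 0.14 (limma adjusted p = 0.0588 and 0.194). These were the 2 with an unadjusted p under 0.05, and both were named after their values were seen. The other relatives printed in this paragraph were picked outside the rule for named genes and do not stand for the list. Plk1 passed in the authors' value table (1.22, adjusted p = 0.0236), with normexp, with the filter on all 8 arrays, with trend and robust and with array weights.

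**Figure D5:**
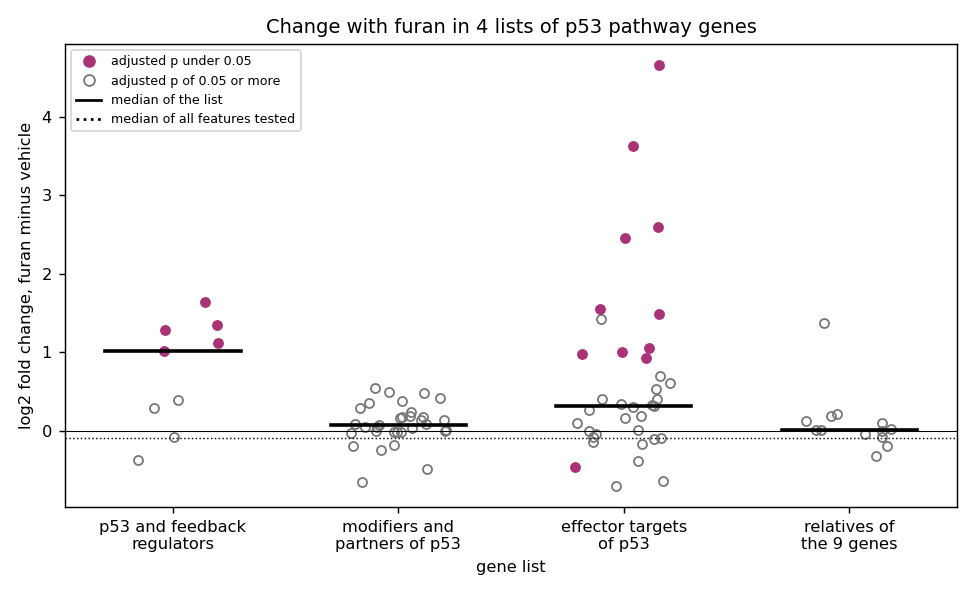
Log2 fold change, furan minus vehicle (vertical axis), of the 9 genes and of 3 lists of other p53 pathway genes. Each point is a gene, filled where it passed the threshold, and the black bar is the median of the list. The medians are 1.01 for the 9 genes, 0.08 for modifiers and partners, 0.32 for effector targets and 0.01 for relatives, and the dotted line is the median of all features tested, -0.09.

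Whole liver holds several cell types, and fewer cells of a type cannot be told apart from less RNA per cell. All 8 hepatocyte markers were measured and 0 passed in limma, with 1 at an unadjusted p under 0.05. Their summed signal ran from 3750 to 5095 times the 75th percentile on the vehicle arrays and from 3986 to 4480 on the furan arrays. Of 7 proliferation markers 1 passed, the cyclin A2 gene Ccna2, 2.34-fold higher (limma adjusted p = 0.0419). Of the 7, 6 had an unadjusted p under 0.05, as 23.8% of all features did. In 5 every furan array was above every vehicle array, as in 10.8% of all features. All 7 had a log2 change above 0, with a median of 0.96. Their summed signal ran from 8.99 to 10.7 with vehicle and from 13.6 to 17.2 with furan, and the part of dividing cells in the changes above was not tested. In limma 0 of 8 sinusoidal endothelial, 0 of 8 stellate and 0 of 8 bile duct markers passed. So did 0 of 7 macrophage and 0 of 7 lymphocyte and leukocyte markers. In the order of these lists, 3, 2, 1, 0 and 1 had an unadjusted p under 0.05, against 23.8% of all features. The summed endothelial signal was 85.5 to 102 with vehicle and 70.4 to 86.3 with furan. In 3 of the 8 genes every furan array was below every vehicle array, as in 7.33% of all features. The macrophage signal was 93.4 to 228 and 110 to 133, the stellate signal 87.8 to 121 and 95.9 to 111, the bile duct signal 3.89 to 6.35 and 4.32 to 5.74, and the leukocyte signal 6.27 to 8.24 and 6.25 to 7.58. In each of these 4 lists the ranges of the groups overlapped, as did those of the endothelial signal, from 85.5 to 86.3.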

How the data were processed

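RNA of 8 livers, 4 in each group, was hybridised to the arrays of 1 slide, design 028005. Per the file headers, the scanner files hold 1 colour, and Agilent Feature Extraction 11.0.1.1 subtracted the background of each spot and detrended it to give its processed intensity. The authors also deposited a table of log2 values. How they made that table is not stated in the labels.

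Of 62976 spots, 3671 controls were left out, as were 128 to 315 outlier-marked spots on each array. From the log2 of each processed intensity, that of the 75th percentile of the array was subtracted, and spots of a probe were averaged. Probes well above background on 4 or more of 8 arrays were kept, 33848 of 55681, and the brightest kept probe stood for each gene. Symbols came from RefSeq accessions through a table for GRCm38.p6, which named 27235 of 28685 probes. All 11 probes of the 9 genes were kept. The probe annotation is against mm9, so no probe positions are given.

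The groups were compared with limma 3.58.1 in R 4.3.3 (lmFit and eBayes, 2-sided, 1 group term), since the labels name a block design without the blocks. The function was tested on simulated data. Named genes were the 9 genes, up to 4 called genes of each pathway list with the smallest adjusted p, the partners in the 5 pairs, 2 genes of each marker list with the smallest p, of which only those that bear on a result are printed, and 3 genes most like Trp53 and Mdm2. The 9 genes and the lists were chosen with earlier results of these data known. Alternatives covered normalization, background, filter, probe choice, outlier spots, test, slide position, threshold and each array left out, and 1 was added after seeing the data. Precision is limited by having 4 arrays a group. Figures were made in matplotlib 3.10.9.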

Additional observations from a re-analysis of the deposited data

Results flagged for a closer look

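In groups of 4 arrays, 3 values stood apart from the others of their group by a gap that passed the 95% critical value of Dixon's test. The Mdm4 level of vehicle replicate 2 was -1.65, and the gap to the next array was 0.89 of the range. For furan replicate 43 the Mdm4 level was -2.06, with a gap of 0.92 of the range. The Trp53inp1 level of vehicle replicate 2 was 1.08, with a gap of 0.90 of the range. In all 32 groups were examined, and chance alone flags about 1 in 20.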

How the results depend on the processing

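All 5 genes that rose stayed higher under each of the 23 alternatives, with ranges over the 8 fits without 1 array of 1.56 to 1.70 for Zmat3, 1.24 to 1.40 for Ccng1, 1.17 to 1.39 for Trp53inp1, 1.02 to 1.18 for Mdm2 and 0.93 to 1.14 for Plk2. Of these 8 fits 6 called Plk2, and all 8 called the other 4 genes, so that 4 to 5 of the 9 were called, with a median of 0.93 to 1.14. The count called was 1 with a shift to the median of the array, where the median of all features was 0.39 and that of the 9 genes 1.50, 0 with the slide column as a block and 3 at an adjusted p under 0.01. The cause of the loss with the column block was not tested. Trp53 ranged from -0.21 to 0.13 without 1 array. It was above 0 at 0.41 with the median shift, 0.05 without a shift, 0.02 under quantile normalization and in the authors' value table, 0.01 with normexp, 0.13 with array weights, 0.13 without vehicle replicate 2 and 0.26 with both the median shift and that array left out, an alternative added after seeing the data. With that alternative 5 of the 9 genes were called, and 0 effector targets lower. Mdm4 was at 0.11 with the median shift and Plk3 at -0.03 with array weights. Of p53 modifiers, 1 was called under quantile normalization, with normexp, in the authors' value table and with the slide row as a block, 2 with the filter on all 8 arrays and with array weights, and 5 with trend and robust, and in 0 of the fits without 1 array. Of effector targets, 6 were called higher with the median shift, 0 with the column block and 10 to 12 without 1 array. The count was 8 with no shift and 8 with the mean of the kept probes of a gene, against 10 as reported. The 1 lower call went to 2 with normexp and in the authors' value table, and to 0 with the median shift, no shift, no filter, either block, an adjusted p under 0.01 and without any 1 array. Of relatives, 1 was called with normexp, in the authors' value table, with the filter on all 8 arrays, with trend and robust and with array weights, and 0 without 1 array. Under quantile normalization the unequal change was 1.03 for Mdm2 and Mdm4 (exact permutation adjusted p = 0.114), 1.05 for Ccng1 and Ccng2 (0.0714) and 1.20 for Plk2 and Plk3 (0.0476). With 1 array left out, the exact test over 35 assignments, whose smallest p is 0.0286, passed in all 8 cases for Mdm2 and Mdm4, Ccng1 and Ccng2, and Trp53inp1 and Trp53inp2. It passed in 5 of 8 for Mdm2 and Trp53 (0.89 to 1.38) and in 1 of 8, without vehicle replicate 2, for Plk2 and Plk3 (0.29 to 1.01). Over all features the count called was 1041, 68.6% of them higher, and it ran from 0 with the column block and 86 with the median shift, 85 of them higher, to 2043 with array weights.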

Other observations

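Both spots of the Trp53 probe on an array differed by 0 to 0.09 on the log2 scale, with a median of 0.05, whereas the vehicle arrays ranged from -1.41 to -0.39. Both spots share the hybridisation of their array, so this difference covers error between spots alone.

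The genes with a symbol whose levels, each centred on its own mean over the 8 arrays, came nearest to Mdm2 were Ephx1, Pdgfa and Rcan1, with root mean square differences of 0.10, 0.11 and 0.12. Ephx1, the microsomal epoxide hydrolase gene, was 2.00-fold higher, the growth factor gene Pdgfa 2.16-fold and the calcineurin inhibitor gene Rcan1 2.27-fold (limma adjusted p = 0.00603, 0.0190 and 0.0107). Nearest to Trp53 were Prss57, Arid3a and Gast, at 0.09, 0.09 and 0.10, with log2 changes of -0.15, -0.02 and -0.12, and none passed. Likeness was taken over the same arrays as the comparison and describes the pattern alone.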
